A study of Mus musculus with 8 samples.

Results

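The cytosolic heat shock proteins described here are 10 genes: Hspa1a, Hspa1b, Hspa8, Hsph1, Dnajb1, Hspb1, Hspb6, Hspb7, Hsp90aa1 and Bag3. They were found by gene name among the 33249 genes of the deposited table, all 10 names matched, and all 10 were among the 14028 genes that passed a minimum mean FPKM (reads scaled to gene length and library depth) of 0.5. RNA from mouse myocardium was sequenced in 8 libraries, 2 in each of 4 groups. The fl/fl-Sham and fl/fl-MI groups came from Piezo1 fl/fl littermates without a Cre transgene, whose genotype the labels give as WT. The CKO-Sham and CKO-MI groups came from Piezo1 fl/fl mice that also carried a tamoxifen-inducible Cre recombinase driven by the Myh6 promoter, which is active in cardiomyocytes, so both genotypes shared the floxed alleles. Myocardial infarction (MI) was made by ligating the left anterior descending artery at 8 weeks of age, sham mice had surgery without infarction, tamoxifen was given to the CKO mice at 4 weeks of age, and MI hearts were taken at day 42. Whether the controls received tamoxifen and when the sham hearts were taken were not given in the sources used here. The labels do not say which mice or which part of the heart each library held, so the p-values measure the spread between these libraries only, which may in part be technical.

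Heat shock proteins are molecular chaperones that hold unfolded proteins in solution, refold them or pass them on for degradation. HSP70 proteins bind exposed hydrophobic stretches in a cycle of ATP hydrolysis, J-domain proteins such as Dnajb1 start that cycle, and nucleotide exchange factors such as Hsph1 and Bag3 reset it. HSP90 acts later, on nearly folded clients, and small heat shock proteins hold clients without using ATP. In muscle, chaperones also keep the sarcomere and its Z-disc in repair, and Bag3 with small heat shock proteins takes damaged filament proteins to autophagy. Many cytosolic heat shock genes are induced by the transcription factor Hsf1, which binds arrays of short inverted GAA units upstream of them.

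The deposited counts summed to between 73821747 and 88117573 per library, or about 18455437 to 22029393 read pairs at 4 counts per pair. Mitochondrially encoded genes held 43.1% to 46.4% of the counts in sham libraries and 19.9% to 24.2% in MI libraries, so levels below are counts scaled to the TMM-normalized library size (CPM) unless FPKM is named. The RNA of Piezo1, the targeted gene, was not lower in the libraries labelled CKO, measured over the whole gene and in all heart cells. Its levels were 72.2 and 82.0 CPM in fl/fl-Sham, 76.7 and 88.3 in CKO-Sham, 53.5 and 64.8 in fl/fl-MI and 56.3 and 64.6 in CKO-MI. The paper reports the deletion from western blots of isolated adult cardiomyocytes, and protein was not measured here. The summed level of 7 cardiomyocyte markers was 28959 to 32518 CPM in sham libraries and 17331, 34688, 31569 and 20345 in fl/fl-MI 1, fl/fl-MI 2, CKO-MI 1 and CKO-MI 2. Of these 7 markers 2 were called higher and 2 lower in MI against sham with the genotypes averaged, so the sum joins genes that moved both ways. Over the same MI libraries 6 fibroblast markers summed to 6120, 2083, 3141 and 5299 CPM, against 1329 to 1467 in sham libraries. Library fl/fl-MI 2 stood apart, with an atrial marker sum of 19857 CPM against 2547 to 4450 in the other MI libraries and an immediate early gene sum of 2256 CPM against 182 to 739. The summed level of 4 endothelial markers was 1259 to 1337 CPM in sham and 393 to 596 in MI libraries, with all 4 called lower. All 4 erythroid markers were called higher, with sums of 67.2 to 477 CPM in sham and 229 to 621 in MI libraries, and 2 of 4 macrophage markers were, with sums of 122 to 146 and 109.9 to 249 CPM. The part of these cell types in the results below was not tested. Summed lymphocyte markers reached at most 6.23 CPM and neutrophil markers at most 5.03 CPM in any library. In these bulk samples, fewer cells of a type and less RNA per cell cannot be told apart.

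The question put first was how the heat shock genes changed after MI. With the genotypes averaged, 7 of the 10 genes were higher in MI than in sham libraries in edgeR's quasi-likelihood test (p adjusted by Benjamini and Hochberg, under 0.05), and none was lower. The same threshold was passed in the higher direction by 22.0% of all genes tested. Hspa1a rose 3.60-fold, Hsp90aa1 3.44-fold, Hsph1 3.26-fold, Hspa1b 3.17-fold, Hspb1 2.39-fold, Bag3 1.86-fold and Hspb7 1.67-fold. The remaining 3 genes, Hspa8, Dnajb1 and Hspb6, did not pass the threshold. The median log2 fold change of the 10 genes was 1.08, and that of all genes tested was 0.03. For 6 of the 10 genes every MI library was above every sham library, as was the case for 20.9% of all genes. Hspa1b missed the threshold when any sham library was left out, and Hspb7 when any sham library but CKO-Sham 2 was. Hspa1a missed it without fl/fl-Sham 2 and without CKO-Sham 1. In each of these fits fewer of all genes passed as well.

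**Figure D1:**
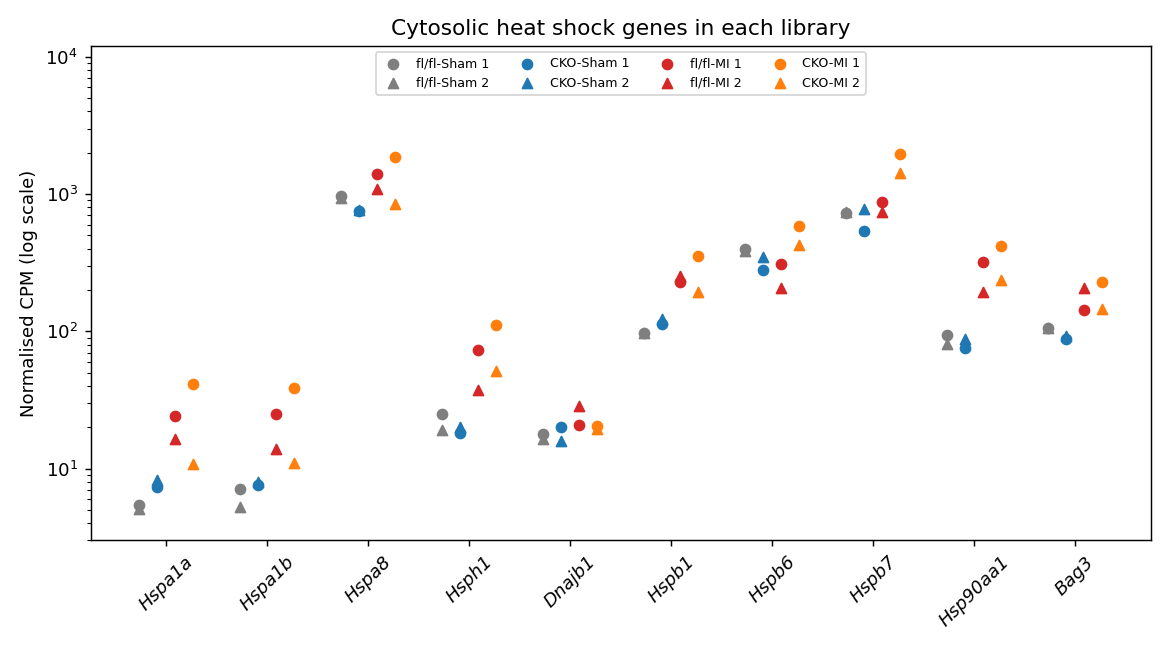
Normalised counts (CPM, log scale) of the 10 genes in each of the 8 libraries, with circles for replicate 1 and triangles for replicate 2 of each group. The 4 sham libraries lie close together for each gene, and the MI libraries are wider apart, with CKO-MI 1 highest for 9 of the 10 genes.

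Hspa1a and Hspa1b encode the stress-inducible cytosolic HSP70, and they lie near each other on the minus strand of chromosome 17 (chr17:34969190-34972156 and chr17:34956436-34959238 in GRCm38). They were at the lowest levels of the 10 genes in sham hearts, at 1.74 ± 0.397 and 1.97 ± 0.308 FPKM (SD over the sham libraries of both genotypes, n = 4). The Hspa1a level was 5.41 and 5.05 CPM in fl/fl-Sham, 7.29 and 8.26 in CKO-Sham, 24.1 and 16.5 in fl/fl-MI, and 41.2 and 10.7 in CKO-MI. Every MI library was above every sham library, while the 2 CKO-MI libraries were further from each other than the genotypes were. Hspa1b was at 7.13 and 5.24 CPM in fl/fl-Sham, 7.55 and 7.96 in CKO-Sham, 25.0 and 13.9 in fl/fl-MI, and 38.5 and 10.96 in CKO-MI. Their log2 fold changes after MI were 1.85 ± 0.397 (SE) for Hspa1a and 1.66 ± 0.401 for Hspa1b, with adjusted p-values of 0.0107 and 0.0164 in edgeR.

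The 2 genes are near-identical copies, and their separate values are uncertain. Of the 150-base windows of the Hspa1a transcript, 38.1% occur unchanged in the Hspa1b transcript. A read from such a window cannot be given to 1 gene by its own bases, though its mate may lie where the copies differ. Summed over both genes the level was 12.5, 10.3, 14.8 and 16.2 CPM in sham hearts and 49.1, 30.4, 79.7 and 21.7 CPM in MI hearts, so the summed groups did not overlap. The likeness of the copies extends upstream, where 247 of 250 bases before the annotated starts are identical. RefSeq promoter windows in GRCm38.p6 were found for 8 of the 10 genes, and Hspa8 and Hsp90aa1 had no entry. In these 250-base windows the letters GAANNTTC and TTCNNGAA, each its own reverse complement and so read on both strands at once, were searched as pairs of inverted GAA units. The 8 genes had 11 windows, of which 6 held a match, against 12.8% of all 32851 windows. The windows with a match belong to 5 of the 8 genes (Hspa1a, Hspa1b, Hspb1, Hspb6 and Hsph1). The Hsph1 windows overlap and hold the same match. The 3-unit forms GAANNTTCNNGAA and TTCNNGAANNTTC, which overlap the pairs, were in no window of the 8 genes and in 0.466% of all windows. The windows of Bag3 and Hspb7, which were also called higher after MI, held no match. Those of Dnajb1, which was not called, held none either, while Hspb6 had a match and was not called. Whether a match goes with the change after MI was not tested. The windows of the copies and of Hspb1 are given as examples of windows with a match, with the matches in capitals:
Hspa1a (chr17:34972157-34972406, strand minus): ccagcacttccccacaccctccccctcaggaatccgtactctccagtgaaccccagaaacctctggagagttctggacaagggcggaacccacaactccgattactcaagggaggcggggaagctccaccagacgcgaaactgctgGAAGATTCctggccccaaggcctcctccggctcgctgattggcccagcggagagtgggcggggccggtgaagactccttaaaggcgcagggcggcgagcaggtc
Hspa1b (chr17:34959239-34959488, strand minus): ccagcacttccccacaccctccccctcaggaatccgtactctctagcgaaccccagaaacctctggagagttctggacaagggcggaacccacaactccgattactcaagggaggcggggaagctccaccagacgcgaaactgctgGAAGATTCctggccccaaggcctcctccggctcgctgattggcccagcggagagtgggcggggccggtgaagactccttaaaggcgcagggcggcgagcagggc
Hspb1 (chr5:135887669-135887918, strand plus): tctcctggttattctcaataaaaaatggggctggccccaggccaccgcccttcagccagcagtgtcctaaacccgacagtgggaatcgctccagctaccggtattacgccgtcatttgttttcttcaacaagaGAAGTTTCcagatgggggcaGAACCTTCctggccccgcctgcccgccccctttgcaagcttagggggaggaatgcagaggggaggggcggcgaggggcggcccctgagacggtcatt

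The match in both HSP70 windows begins 104 bases before the annotated start. Hspb1 has 2 matches, beginning 117 and 97 bases before its start. A match is a run of letters in the window, and binding was not measured.

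Hspa8 encodes the constitutive HSP70, which serves folding in unstressed cells (chr9:40800984-40810087). It was the second most abundant of the 10 genes per length in sham hearts, at 158 ± 21.1 FPKM (SD, n = 4), after Hspb7 at 200 ± 30.2 FPKM. Its level was 969 and 932 CPM in fl/fl-Sham, 753 and 763 in CKO-Sham, 1397 and 1081 in fl/fl-MI, and 1865 and 849 in CKO-MI. Library CKO-MI 2 lay within the range of the sham libraries, so the arms overlapped. The log2 fold change was 0.61 ± 0.249 (SE) with an adjusted p of 0.0894 in edgeR. It was called in 6 of 19 alternative settings, which were DESeq2, limma on each of its 3 scales, and edgeR with no filter on low values or with CKO-MI 2 left out, and over the 19 its adjusted p ranged from 0.000265 to 0.238.

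Hsph1 encodes the HSP110 protein, an exchange factor for HSP70 that also holds unfolded clients (chr5:149614287-149636376). Its level was 25.0 and 19.2 CPM in fl/fl-Sham, 18.1 and 20.2 in CKO-Sham, 73.4 and 37.4 in fl/fl-MI, and 112 and 51.3 in CKO-MI. The lowest MI library was above the highest sham library. The log2 fold change was 1.71 ± 0.307 (SE, adjusted p = 0.00568, edgeR), and the gene stayed called in all 19 alternative settings. A pair match lies in its promoter window, inside the first exon of 1 annotated transcript, and is shown with the match in capitals and 11 bases on each side:
Hsph1 (chr5:149636351-149636380, strand minus): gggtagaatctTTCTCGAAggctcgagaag

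At the transcript level, 2 protein-coding forms of Hsph1 carried most of the signal. The 18-exon form ENSMUST00000202361 includes a coding exon of 132 bases, or 44 codons, that the 17-exon form ENSMUST00000074846 skips. The skipped exon is the 12th of the long form, and it is printed in capitals between 15 bases of each neighbouring exon to show what the forms differ by:
Hsph1 exon 12 (chr5:149623465-149623596, strand minus): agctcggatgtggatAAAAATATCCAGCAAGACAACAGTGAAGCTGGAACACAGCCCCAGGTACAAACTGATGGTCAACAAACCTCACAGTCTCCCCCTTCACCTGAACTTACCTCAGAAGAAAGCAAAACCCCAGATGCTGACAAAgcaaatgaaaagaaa

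The long form was at 3.68 and 4.01 FPKM in fl/fl-Sham, 3.49 and 4.02 in CKO-Sham, 13.1 and 8.38 in fl/fl-MI, and 11.8 and 13.6 in CKO-MI. The skipping form was at 1.46 FPKM in fl/fl-Sham 1 and listed at 0 in the other 3 sham libraries. In the MI libraries it was at 12.5 and 2.36 FPKM in fl/fl-MI and 23.2 and 3.36 in CKO-MI. The skipping form made up 48.8% of the pair in fl/fl-MI 1 and 66.2% in CKO-MI 1, against 22.0% and 19.8% in the second replicates and 28.4% in fl/fl-Sham 1. So the forms were near each other in fl/fl-MI 1, the skipping form was the larger in CKO-MI 1, and the long form was the larger in replicate 2 of both MI groups. These transcripts were chosen after their values were seen and no test was made, and a 0 in an assembled transcript table can be a failed estimate.

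**Figure D2:**
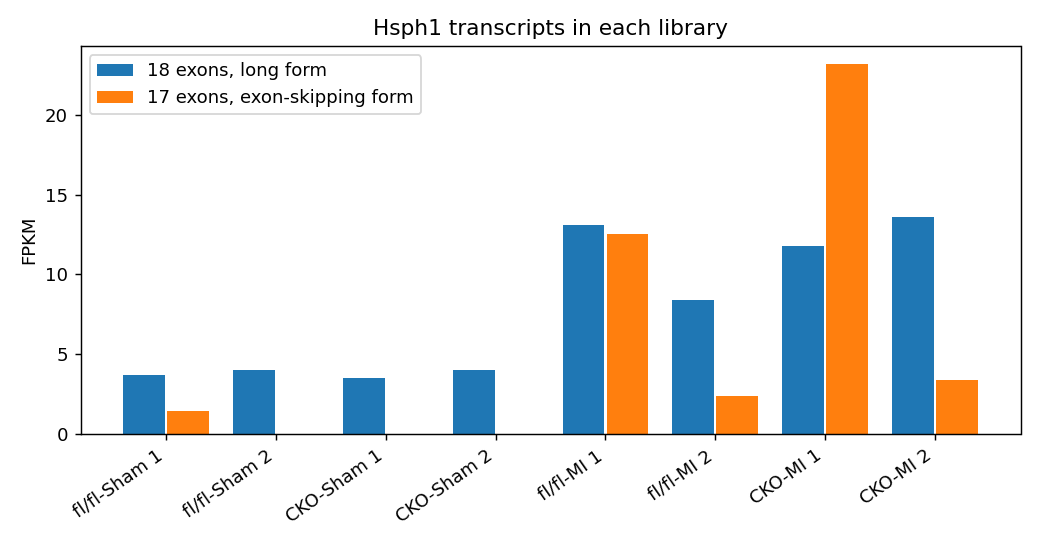
FPKM of the 2 main Hsph1 transcripts in each library, as bars from 0. The long form lies between 3.49 and 4.02 in sham hearts and between 8.38 and 13.6 after MI, and the exon-skipping form ranges from 2.36 to 23.2 after MI.

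Other genes of the group gave less to see at the transcript level. Hspa8 had a retained-intron form, ENSMUST00000149936, that was 3.59%, 14.5%, 17.1% and 18.9% of its pair with the main coding form in sham hearts and 23.0%, 25.1%, 21.9% and 18.9% in MI hearts. Its share in CKO-MI 2 was within the range of the sham libraries. The 2 coding forms of Hspb1 kept a like ratio, with the 2-exon form at 13.5% to 25.4% of the pair in sham libraries and 20.7% to 22.6% in MI libraries.

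Dnajb1 encodes a J-domain partner of HSP70 (chr8:83608193-83612653), and it moved little beside the HSP70 genes. Its level was 17.9 and 16.4 CPM in fl/fl-Sham, 20.1 and 15.9 in CKO-Sham, 20.6 and 28.7 in fl/fl-MI, and 20.4 and 19.3 in CKO-MI. The arms overlapped, and only fl/fl-MI 2 was clear of the sham libraries by a wide margin. The log2 fold change was 0.33 ± 0.144 (SE) with an adjusted p of 0.104 in edgeR.

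Hsp90aa1 encodes the inducible cytosolic HSP90 (chr12:110690605-110702728), and its change had the smallest p of the 10 genes. It was at 93.7 and 80.4 CPM in fl/fl-Sham, 75.2 and 88.2 in CKO-Sham, 322 and 192 in fl/fl-MI, and 418 and 237 in CKO-MI. The lowest MI library, fl/fl-MI 2, was still well above the highest sham library. The log2 fold change was 1.78 ± 0.241 (SE, adjusted p = 0.00209, edgeR), and over the 19 alternatives it ranged from 1.52 to 2.82 and passed the threshold in each.

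Bag3 encodes a co-chaperone that links HSP70 to small heat shock proteins and to autophagy (chr7:128523616-128546981). Its level was 106 and 106 CPM in fl/fl-Sham, 87.5 and 92.1 in CKO-Sham, 143 and 208 in fl/fl-MI, and 230 and 146 in CKO-MI. The MI and sham libraries did not overlap. The log2 fold change was 0.89 ± 0.183 (SE, adjusted p = 0.00907, edgeR).

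The 3 small heat shock proteins behaved differently from each other. Hspb1, the HSP27 protein that guards actin filaments (chr5:135887919-135889563), was at 97.8 and 97.3 CPM in fl/fl-Sham, 113 and 123 in CKO-Sham, 229 and 252 in fl/fl-MI, and 352 and 194 in CKO-MI. Its MI libraries were all above its sham libraries, with a log2 fold change of 1.26 ± 0.190 (SE, adjusted p = 0.00310, edgeR). Hspb7, found mainly in heart and skeletal muscle and bound to thin filament and Z-disc proteins (chr4:141420779-141425311), was at 732 and 741 CPM in fl/fl-Sham, 537 and 774 in CKO-Sham, 871 and 740.0 in fl/fl-MI, and 1943 and 1420.1 in CKO-MI. Only the libraries labelled CKO-MI were far above the sham range, and the averaged log2 fold change was 0.74 ± 0.176 (SE, adjusted p = 0.0153, edgeR). Hspb6, the HSP20 protein of striated and smooth muscle (chr7:30552178-30555440), was at 401 and 388 CPM in fl/fl-Sham, 280.2 and 349 in CKO-Sham, 309 and 208 in fl/fl-MI, and 581 and 427 in CKO-MI. Its fl/fl-MI libraries lay below the fl/fl-Sham libraries and its CKO-MI libraries above the CKO-Sham libraries, and the averaged log2 fold change was 0.03 ± 0.177 (SE, adjusted p = 0.888, edgeR).

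The size of the MI changes depends on the scale. On log2(FPKM + 1) the median of all genes was itself 0.41 higher in MI, and on log2(TPM + 1) it was 0.92 higher, whereas on the CPM used above it moved by 0.03. The summed FPKM of the 10 genes was 536 to 676 in sham libraries and 1095 to 2145 in MI libraries. With the genotypes averaged, limma called 7864 of the 14028 genes in either direction on log2(FPKM + 1). It called 7954 on log2(FPKM + 0.1) and 11033 on log2(TPM + 1). On each of these scales all 10 heat shock genes were called higher, Hspb6 with a log2 change of 0.58 on log2(FPKM + 1). The counts of all genes join both directions, so no share of all genes called higher stands beside these 10. Whether Hspb6 was called higher with the genotypes averaged therefore depends on the scaling. Its averaged log2 change was above 0 on each scale and below 0 without CKO-Sham 1 (-0.0405), fl/fl-MI 1 (-0.14) or CKO-MI 1 (-0.11). Levels were also set against the cardiomyocyte marker sum, whose markers were called in both directions after MI. Hspb7 was 1.75% to 2.67% of that sum in sham libraries, 5.03% and 2.13% in fl/fl-MI, and 6.15% and 6.98% in CKO-MI. Hspb6 was 0.912% to 1.30% of it in sham libraries, 1.78% and 0.598% in fl/fl-MI, and 1.84% and 2.10% in CKO-MI, so on this ratio fl/fl-MI 1 was above the sham libraries and near CKO-MI 1, unlike on CPM. Hsp90aa1 was 0.245% to 0.304% of it in sham libraries and 0.554% to 1.86% after MI, with no overlap.

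In each genotype alone, 2 of the 10 genes passed the adjusted threshold in fl/fl hearts (Hspb1 and Hsp90aa1), where 10.1% of all genes were called higher. In hearts labelled CKO 5 passed (Hsph1, Hspb1, Hspb7, Hsp90aa1 and Bag3), where 12.8% of all genes were called higher. The 2 comparisons share no library, but they share 1 estimate of spread, and passing in one alone does not show a difference between genotypes. These counts moved with single libraries. In fl/fl, fewer of the 10 genes passed when any 1 of the 4 sham libraries was left out. More passed there when an MI library of either genotype was left out. In CKO fewer passed without any 1 of the sham libraries or without CKO-MI 1, and more without CKO-MI 2 or either fl/fl-MI library. The number of all genes called moved the same way in most of these fits. It fell instead in fl/fl without CKO-MI 1 or CKO-MI 2, and in CKO without CKO-MI 2. The log2 fold changes in fl/fl and in CKO were 1.56 ± 0.338 and 2.003 ± 0.343 (SE) for Hsp90aa1, 1.32 ± 0.429 and 2.09 ± 0.439 for Hsph1, and 1.30 ± 0.268 and 1.21 ± 0.268 for Hspb1. For the small muscle proteins they were 0.13 ± 0.248 and 1.36 ± 0.252 for Hspb7, and -0.61 ± 0.252 and 0.68 ± 0.252 for Hspb6.

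**Figure D3:**
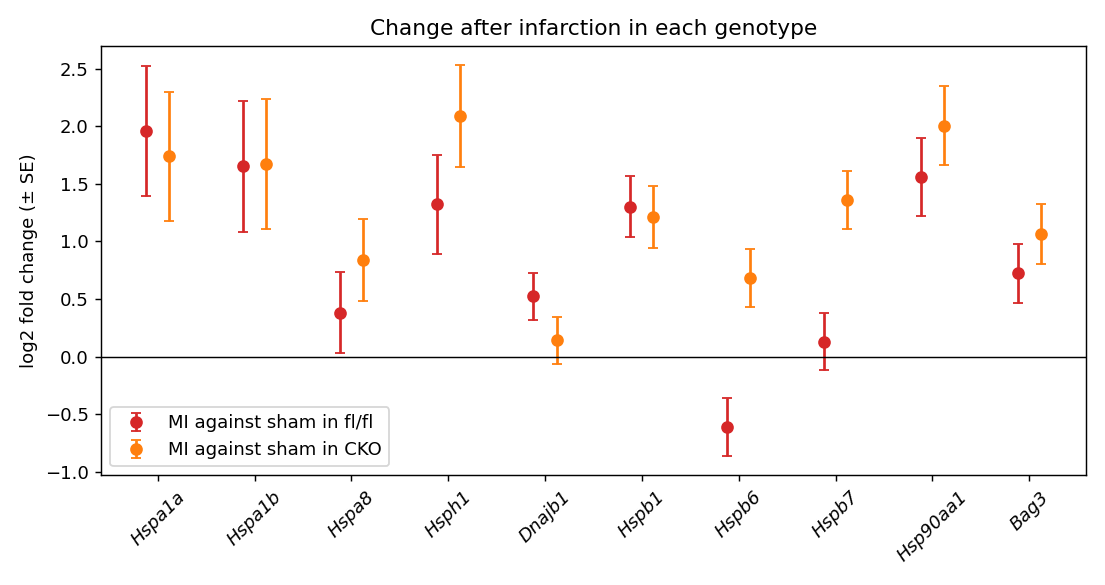
Log2 fold change of MI against sham with its standard error from edgeR for each gene, in fl/fl and in CKO hearts, 2 libraries against 2 in each. The genotypes' error bars overlap for most genes and stand apart for Hspb6 and Hspb7, at -0.61 and 0.13 in fl/fl against 0.68 and 1.36 in CKO.

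The design next asks whether the genotypes differed after MI, with the same 4 MI libraries as above. In CKO-MI against fl/fl-MI none of the 10 genes passed an adjusted p under 0.05 in edgeR, nor did any of the 14028 genes (0%), while 2 of the 10 and 1166 of all genes (8.31%) were under an unadjusted p of 0.05. Those 2 genes were Hspb7 and Hspb6. The libraries labelled CKO-MI held 1681 ± 370 CPM of Hspb7 (SD, n = 2) and those labelled fl/fl-MI 806 ± 92.9. Its groups did not overlap, as those of Hspb6 did not, and 14.5% of all genes were separated in this direction. Dnajb1 was separated in the lower direction, as were 15.5% of all genes. For Hspb7 the log2 fold change was 1.06 ± 0.251 (SE), with an unadjusted p of 0.00380 and an adjusted p of 0.489 in edgeR. By the second call rule, an unadjusted p under 0.05 with a change of at least 2-fold, Hspb7 was called higher, as were 0.492% of all genes. Hspb6 held 504 ± 109 CPM in CKO-MI and 258 ± 71.9 in fl/fl-MI (SD, n = 2), with a log2 fold change of 0.96 ± 0.253 (SE), an unadjusted p of 0.00651 and an adjusted p of 0.528 in edgeR. DESeq2 called both, with adjusted p-values of 0.00558 for Hspb7 and 0.0258 for Hspb6, among 207 genes. Over the 12 alternatives that kept 2 libraries in each group compared, the adjusted p ranged from 0.00558 to 0.9996 for Hspb7 and from 0.0258 to 0.9996 for Hspb6. With 2 libraries against 2, an exact permutation test of a single gene cannot go below a two-sided p of 0.3333.

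The cardiomyocyte marker sum, which joins markers called in both directions, was at 31569 and 20345 CPM in the 2 libraries labelled CKO-MI. In the 2 labelled fl/fl-MI it was at 17331 and 34688. As a share of it, Hspb7 was 5.03% in fl/fl-MI 1 and 2.13% in fl/fl-MI 2, against 6.15% and 6.98% in CKO-MI. Without fl/fl-MI 2, the library with the high atrial markers, the log2 differences were 0.95 for Hspb7 and 0.71 for Hspb6 in edgeR. Without fl/fl-MI 1 they were 1.20 and 1.30, when only the atrial-marker-rich library stood for fl/fl-MI. The part of cell composition, of atrial tissue and of the immediate early genes in these differences was not tested.

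None of the other 8 genes was under an unadjusted p of 0.05 in edgeR, and for 7 of them the sign turned when 1 library was left out. CKO-MI 1 was the highest of the 4 MI libraries for 9 of the 10 genes, all but Dnajb1, and for 20.9% of all genes. In replicate 1 of CKO-MI the level was above replicate 2 for all 10 genes, with a median log2 difference of 0.84 against 0.00 for all genes, and in fl/fl-MI for 7 of the 10, with a median of 0.46 against 0.01. The sham replicates were closer, with medians of 0.08 in fl/fl-Sham and -0.15 in CKO-Sham. Without CKO-MI 1 the log2 difference between the genotypes was -0.91 for Hspa1a, -0.81 for Hspa1b, -0.53 for Hspa8, -0.30 for Hspb1, -0.25 for Bag3, -0.11 for Hsp90aa1 and -0.10 for Hsph1, each of the opposite sign to the value over all libraries. The values over all libraries were 0.35, 0.35, 0.13, 0.18, 0.10, 0.35 and 0.56. The sign also turned without fl/fl-MI 2 for Hspa1b (-0.0127) and Hspa8 (-0.0420), and without fl/fl-MI 1 for Bag3 (-0.13). Replicate numbers have no order, and what set CKO-MI 1 apart in these genes was not tested.

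**Figure D4:**
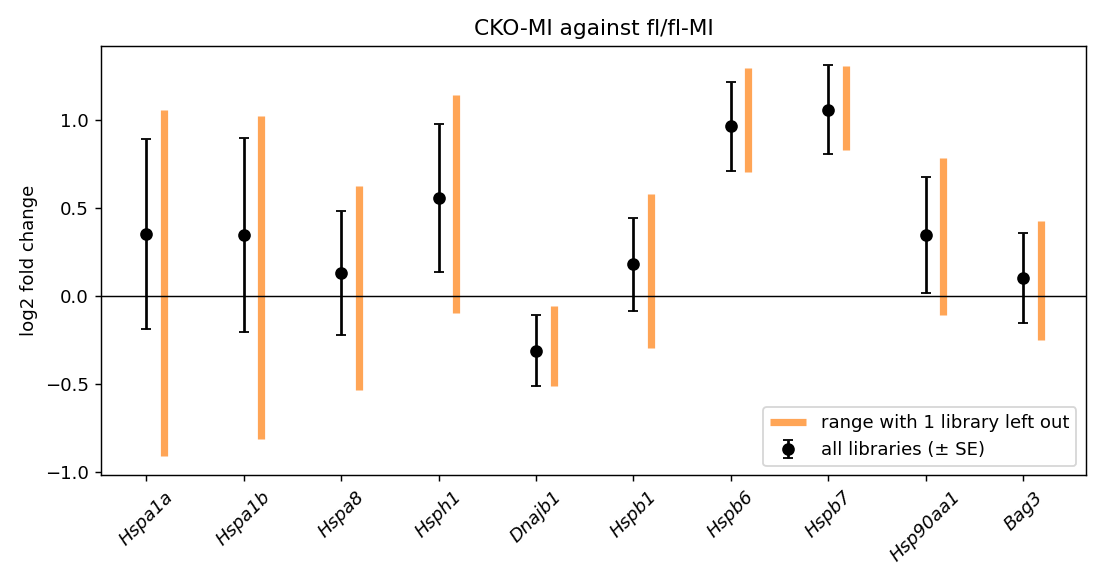
Log2 difference between CKO-MI and fl/fl-MI with its standard error from edgeR (black) and the range when each of the 8 libraries is left out in turn (orange). The range stays above 0 for Hspb6 and Hspb7 and below 0 for Dnajb1, and crosses 0 for the other 7 genes.

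In the sham-operated mice the genotypes were also compared. In CKO-Sham against fl/fl-Sham none of the 10 genes was called at an adjusted p under 0.05 by edgeR, against 1 gene (0.00713%) of all tested, and none had an unadjusted p under 0.05, against 546 of all genes (3.89%). The log2 differences ranged from -0.33 for Hspa8 to 0.57 for Hspa1a, with standard errors of 0.351 and 0.551. The groups did not overlap for 6 of the 10, with Hspa1a, Hspa1b and Hspb1 higher in CKO-Sham and Hspa8, Hspb6 and Bag3 lower, where 23.2% of all genes were separated in the higher and 23.8% in the lower direction. The interaction of genotype and MI, which asks whether the MI change differed between genotypes, was called for none of the 10 and for no gene (0%) at an adjusted p under 0.05 in edgeR, and for 1191 genes (8.49%) at an unadjusted p under 0.05. It was 1.29 ± 0.356 (SE, unadjusted p = 0.00836, adjusted p = 0.574) for Hspb6 and 1.23 ± 0.352 (unadjusted p = 0.00995, adjusted p = 0.574) for Hspb7 in edgeR, and DESeq2 gave adjusted p-values of 0.0593 and 0.0624. On log2(TPM + 1) limma gave adjusted p-values of 0.807 for Hspb6 and 0.793 for Hspb7. Without fl/fl-MI 1 the interaction was 1.63 for Hspb6 and 1.37 for Hspb7, with a lone library left in fl/fl-MI.

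The wider chaperone system was described from 7 further gene lists, in MI against sham with the genotypes averaged, where 22.0% of all genes were called higher and 18.3% lower. Of 15 other partners of cytosolic HSP70, 10 were higher and 1 was lower at an adjusted p under 0.05, with a median log2 fold change of 0.57. Hspa4, an HSP110 relative of Hsph1, rose by 1.20 ± 0.103 on the log2 scale (SE, adjusted p = 0.000658), the J-domain protein Dnajb4 by 1.85 ± 0.194 (adjusted p = 0.00104) and Hspa4l by 1.39 ± 0.160 (adjusted p = 0.00125) in edgeR. Hspa4 was at 61.0 to 73.4 CPM in sham libraries and 137 to 187 in MI libraries, a narrower MI range than that of Hsph1. Of the 11 genes of the HSP90 machinery 4 were higher and 1 was lower, which is not far from the shares of all genes. The constitutive Hsp90ab1 rose by 0.73 ± 0.160 on the same scale (adjusted p = 0.0116), the HSP70 to HSP90 adaptor Stip1 by 0.96 ± 0.159 (adjusted p = 0.00434), the HSP90 ATPase activator Ahsa1 by 0.60 ± 0.108 (adjusted p = 0.00571) and the co-chaperone Fkbp5 by 1.06 ± 0.212 (adjusted p = 0.00842) in edgeR.

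Of 4 other small heat shock proteins only Hspb8, the partner of Bag3, passed the threshold, with a log2 fold change of 0.63 ± 0.128 (SE, adjusted p = 0.00868, edgeR), and Cryab, the abundant alpha B-crystallin, was at 0.11 ± 0.147 (adjusted p = 0.584). Among 9 BAG family members and heat shock factors 1 was higher and 2 were lower, a smaller share higher than the 22.0% of all genes and a share lower near their 18.3%. Bag2 was higher by 1.15 ± 0.192 (adjusted p = 0.00439), Bag1 fell by 0.62 and Bag5 by 0.46 on the log2 scale (adjusted p = 0.00482 and 0.0129, edgeR). The mRNA of Hsf1 was at 25.4 to 28.6 CPM in sham and 21.4 to 29.6 in MI libraries, with a log2 fold change of -0.06 ± 0.105 (adjusted p = 0.651, edgeR).

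The chaperones of other compartments differed in how evenly they rose. All 14 chaperones of the endoplasmic reticulum were higher, with a median log2 fold change of 0.94. Hspa5, the HSP70 of that compartment, was at 228 to 272 CPM in sham hearts and 532 to 541 after MI, with a log2 fold change of 1.10 ± 0.1002 (SE, adjusted p = 0.000731, edgeR), and Dnajc3 and Canx rose by 1.01 and 0.74. Of 9 mitochondrial chaperones and proteases 5 were higher and 1 was lower, against the same 22.0% and 18.3% of all genes, with Dnaja3 at 0.98 ± 0.134 (adjusted p = 0.00217), the mitochondrial HSP70 Hspa9 at 0.87 ± 0.141 (adjusted p = 0.00393) and the chaperonin Hspd1 at 0.78 ± 0.162 (adjusted p = 0.00964) in edgeR. Of the 8 subunits of the cytosolic chaperonin TRiC 5 were higher, led by Cct6a at 0.84 ± 0.111 (adjusted p = 0.00201, edgeR), Cct8 at 0.60 and Cct3 at 0.54. Each of the 8 libraries was also left out in turn, alternatives chosen after the data were seen. The number called higher then changed for every list but the small heat shock proteins. Fewer genes of the TRiC, HSP70 partner and endoplasmic reticulum lists passed without any single sham library or without CKO-MI 1. In those fits fewer of all genes passed too. The median log2 fold change was 0.49 to 0.66 for the HSP70 partners and 0.14 to 0.42 for the HSP90 machinery. It was -0.29 to -0.04 for the small heat shock proteins and 0.06 to 0.12 for the BAG family and heat shock factors. For the endoplasmic reticulum it was 0.81 to 1.07, for the mitochondrial list 0.26 to 0.38 and for TRiC 0.35 to 0.52. No gene of any of the 7 lists was called in CKO-MI against fl/fl-MI by edgeR, nor was any of the 14028 genes tested (0%).

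**Figure D5:**
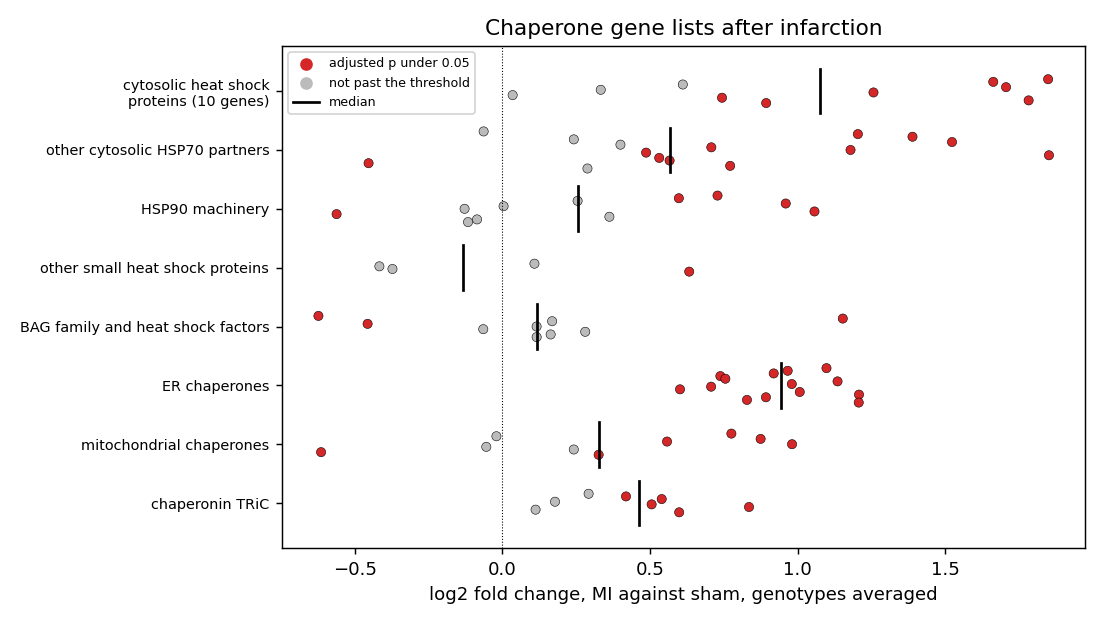
Log2 fold change of MI against sham, genotypes averaged, for each gene of the 10 heat shock genes and of 7 other chaperone lists, with called genes in red, others in grey and the list's median as a black line. The median is 1.08 for the 10 genes and 0.94 for the endoplasmic reticulum chaperones, and it is below 0 for the other small heat shock proteins.

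Over the 8 libraries, the genes whose log2 level followed each heat shock gene most closely among the 5524 genes at a mean FPKM of 5 or more differed from gene to gene. Hspa8 was followed best by Dnaja1, a J-domain partner of HSP70, with a Pearson r of 0.979. Hspb1 was followed best by Myom2, a myosin-binding protein of the sarcomere's M-band (r = 0.996), and Bag3 by Fxr1, the muscle methyltransferase Smyd1 and the sarcoglycan Sgcb (r = 0.992, 0.991 and 0.991). The leading genes for Hsp90aa1 were Slmap, Otud6b and Slain2 (r = 0.994, 0.993 and 0.993), and Slain2 was also among the leading genes of Hsph1 (r = 0.992). Hspb7 was followed best by Tns1 (r = 0.990), Hspb6 by Klhl24 (r = 0.983), and Dnajb1 by Smim7 (r = 0.978). Hspa1a and Hspa1b were among each other's leading genes (r = 0.988), with reads that they may share. All points share the split between sham and MI libraries, so these values are a description only.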

How the data were processed

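Poly(A) RNA of mouse myocardium was sequenced as paired reads of 150 bases in 8 libraries, grouped by their deposited labels. The submitters' processing notes name cutadapt 1.9 and FastQC, and the aligner, counter and build are not given in the sources used here. Identifiers and coordinates were compared with GENCODE M21 (GRCm38), which held 99.7% of the identifiers, and 9 of the 10 genes had equal coordinates. The authors deposited whole-number counts per gene and transcript, not normalized and about 4 per read pair, and FPKM values, normalized to length and library size. The library kit marks strand, and whether the counting used it is not stated.

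Genes at or above a mean FPKM of 0.5 were fitted with edgeR 4.0.16 (quasi-likelihood test, TMM) in R 4.3.3, with 1 mean per group over all 8 libraries, 2 each. Comparisons were MI against sham (averaged and in each genotype), genotype in MI and in sham, and their interaction, called at a Benjamini-Hochberg adjusted p under 0.05, with a second rule of unadjusted p under 0.05 and 2-fold. CPM were counts over TMM-scaled library size. No member was dropped or imputed. Alternatives were other scalings and filters, DESeq2 1.42.0, limma 3.58.1 on log2(FPKM + 1), log2(FPKM + 0.1) and log2(TPM + 1), counts divided by 4, a replicate block, each library left out, and Hspa1a and Hspa1b summed. The fits were tested on simulated data. Named were all 10 members, up to 3 genes of each chaperone list with the smallest p plus Hsf1, Cryab, Hspb8, Hsp90ab1, Hspa5 and Hspd1, and for each member up to 3 genes with the highest Pearson r. Transcript values, sequences and promoter windows were read with Python 3.11.15, pandas 2.3.3 and matplotlib 3.10.9. The members and lists were chosen with earlier results of these data known. Depth limits precision most for Hspa1a and Hspa1b, the members with the lowest counts.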

Additional observations from a re-analysis of the deposited data

Results flagged for a closer look

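In MI, the Dnajb1 level of fl/fl-MI 2 (28.7 CPM) lay far above those of the other 3 MI libraries (19.3 to 20.6 CPM). Its gap to the nearest library was 0.857 of the range of the 4 libraries, above Dixon's critical value. Of 20 such sets of 4 libraries (10 genes, in sham and in MI) 1 was flagged, and chance flags about 1 in 20.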

How the results depend on the processing

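Of the 1028 recomputed fold changes of single genes, 889 kept their direction and their side of the threshold. The cause of the changes below was not tested, except that FPKM and TPM shift the median of all genes up after MI. With the genotypes averaged the median log2 change of the 10 genes was 1.53 on log2(FPKM + 1), 1.61 on log2(FPKM + 0.1) and 2.13 on log2(TPM + 1), in fl/fl it was 1.36, 1.52 and 1.96, and in CKO it was 1.82 on log2(FPKM + 0.1) and 2.23 on log2(TPM + 1). In fl/fl the number of members called was 5 with DESeq2, 7 and 7 on FPKM, 9 on TPM, 5 without a filter and 0 from the 4 libraries compared alone. Of all genes 4038, 5255, 5437, 9404, 2660 and 199 were called in the same order, against 2596 in the main fit. In CKO the number of members called was 8 with DESeq2 and 10 on each of FPKM and TPM. Of all genes 4726, 5164, 5390 and 8825 were called there, against 3467 in the main fit. In CKO-MI against fl/fl-MI 2 members were called with DESeq2. All genes called numbered 207 with DESeq2 and 0 with edgeR in CKO-MI against fl/fl-MI. Hspb6 changed sign after MI in fl/fl on TPM (0.50) and with the genotypes averaged at a minimum mean FPKM of 5 (-0.0404).

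With each library left out in turn, the number of members called changed in every comparison except CKO-Sham against fl/fl-Sham. In CKO the median log2 change of the members after MI ranged from 0.58 to 1.58. Between the genotypes after MI it ranged from -0.27 to 0.88, and for the interaction from -0.11 to 0.77. A sign change occurred after MI for Hspb6 averaged (-0.14 to 0.16), Hspb7 in fl/fl (-0.0202 to 0.24) and Dnajb1 in CKO (-0.0158 to 0.32). In CKO-MI against fl/fl-MI it occurred for Hspa1a (-0.91 to 1.06), Hspa1b (-0.81 to 1.03), Hspa8 (-0.53 to 0.63), Hsph1 (-0.10 to 1.14), Hspb1 (-0.30 to 0.58), Hsp90aa1 (-0.11 to 0.79) and Bag3 (-0.25 to 0.43). In sham it occurred for Hsp90aa1 (-0.21 to 0.0220), Dnajb1 (-0.11 to 0.23) and Hspb7 (-0.46 to 0.0712). The number of all genes called moved between these settings too. The lone library left in a group was assumed to vary like the other groups.

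Samples with the same replicate number did not deviate together (correlations of -0.20 to 0.05), so the number is only a name. With the replicate number as a block 7 members were called averaged, 2 in fl/fl, 4 in CKO and 0 in each of the other comparisons. Of all genes 5085, 1689 and 2677 were called averaged, in fl/fl and in CKO, and 0 in each of the others. The main fit called 5663, 2596 and 3467 of all genes averaged, in fl/fl and in CKO.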
